A study of Rattus norvegicus with 16 samples.

Results

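The comparison described here is ozone against air in the liver of sham-operated rats: 4 libraries from SHAM rats that breathed ozone and 4 from SHAM rats that breathed air, chosen by surgery and exposure from 16 libraries in all. All 8 came from male rats of the strain labelled Wistar-Wyoto, aged 13 weeks, and the exposure to air or to ozone at 0.8 ppm lasted 4 hours in both groups. Livers were flash frozen and mRNA was selected before sequencing. The other 8 libraries, from adrenalectomized (ADREX) rats under the same exposures, enter the estimate of spread and a side-by-side comparison at the end. Libraries are named by the numbers of their titles, SHAM air 1 to 4 and SHAM ozone 17 to 20. The labels do not say that each library came from a separate rat, so p-values measure the spread between these libraries, which may be technical in part.

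Ozone is an oxidant gas that reacts at the airway surface and does not itself reach the liver in quantity. In rats it activates the sympathetic nerves and the hypothalamus, pituitary and adrenal glands, which release adrenaline and corticosterone. In hepatocytes corticosterone binds the glucocorticoid receptor, a transcription factor that raises genes of amino acid breakdown and glucose synthesis and restrains genes of inflammation. Sham-operated rats keep their adrenal glands and can mount this response.

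The 8 libraries held 8372891 to 14096246 recovered reads each, in 15224 to 16955 genes. Across genes Spearman's rho was 0.929 to 0.975 between air libraries, 0.938 to 0.982 between ozone libraries and 0.905 to 0.976 between air and ozone libraries. Alb, which encodes albumin, and 11 other hepatocyte markers summed to 159379 to 214759 reads per 1000000 (RPM) in air and 151581 to 170940 in ozone, so the labelled tissue matched its markers. The libraries also held transcripts of nervous tissue. Together, 25 markers of neurons and oligodendrocytes reached 66.6, 45.7, 880 and 109 RPM in SHAM air 1 to 4 and 246, 2974, 632 and 81.7 in SHAM ozone 17 to 20. The groups overlapped in this sum (exact permutation test, two-sided p = 0.286, 0.52 adjusted over 14 cell type lists). SHAM ozone 18 and SHAM air 3 had the highest sum of their groups, and counts below are also given without them. Each of the 25 neural markers had a higher mean log2 level in ozone, with a median change of 2.08 in SHAM (1.20 without SHAM ozone 18) and 2.06 in ADREX. In SHAM 0 of them were called, and 8 were up at an unadjusted limma p under 0.05, beside 9.76% of all genes. Of the 12 sinusoidal endothelial markers (cells lining the liver's capillaries), 12 had a lower mean log2 level in ozone. Their sum was 560, 596, 576 and 521 RPM in air and 399, 295, 449 and 517 in ozone (exact permutation test, two-sided p = 0.0286, the smallest that 4 against 4 can give, and 0.2 adjusted over 14 cell type lists). Markers of bile duct cells summed to 10.7, 9.16, 10.3 and 5.37 RPM in air and 15.7, 19.8, 12.1 and 12.7 in ozone (exact permutation p = 0.0286, adjusted 0.2). In bulk tissue fewer cells of a type and less RNA per cell cannot be told apart.

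With limma, 202 of 12791 genes tested changed at an adjusted p under 0.05, which was 1.58%. Of these 121 rose (0.946%) and 81 fell (0.633%). On recovered reads edgeR called 176 (1.38%) and DESeq2 540 (4.23%). Over all genes tested the libraries of the groups did not overlap in 5.14% with ozone higher and in 5.93% with ozone lower, and among the 202 calls this was so for 196. Rises spanned 1.42-fold to 40.2-fold with a median of 2.20-fold, and falls spanned 1.48-fold to 8.40-fold with a median of 2.09-fold. Single libraries weighed on the number of calls. Dropping SHAM ozone 20 left 38 calls, SHAM air 2 left 49, SHAM ozone 17 left 50, SHAM air 4 left 102 and SHAM ozone 18 left 129, whereas dropping SHAM air 3 gave 658. Dropping both SHAM ozone 18 and SHAM air 3 gave 210 (159 up and 51 down). A core of 35 genes, 31 up and 4 down, kept the call without any 1 SHAM library and in every other planned setting that tested them. Fits without 1 ADREX library were not counted among these settings. The core counts Pnpla2 and LOC100911615, whose reads may be split between the 2 names, as separate genes. For genes outside that core the libraries that decided the call are named beside the result.

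**Figure D1:**
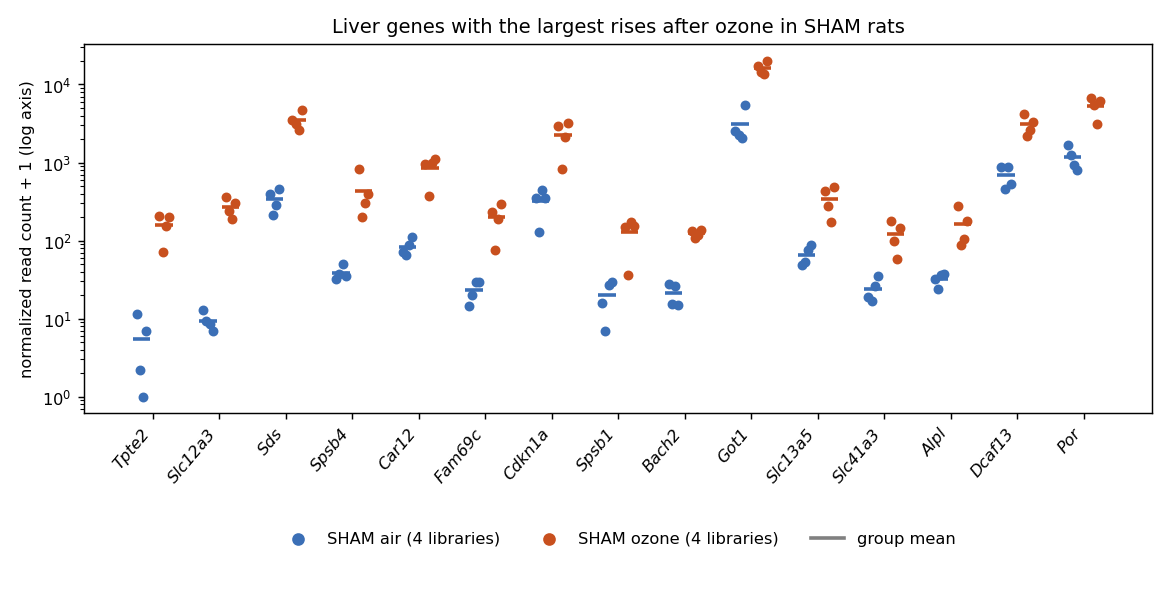
Normalized read count plus 1 (log axis) in each of the 4 SHAM air and 4 SHAM ozone libraries for the 15 rises that the naming rule gave, 1 point per library and a bar at each group mean. For every gene the lowest ozone library lies above the highest air library, as the rule required.

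Of 22 tested genes of kidney-type ion transport 3 rose, where 0.946% of all genes rose. Slc12a3 and Car12 were among the 15 rises of the naming rule, and Atp1b1 was not. Slc12a3, the sodium and chloride cotransporter of the distal tubule and the target of thiazide drugs, had normalized counts of 11.9, 8.41, 7.50 and 6.02 in air and 356, 236, 190 and 301 in ozone. Every ozone library exceeded every air library by more than the spread within either group, and the rise was 28.7-fold (log2 4.84 ± 0.49, limma adjusted p = 0.000307). Car12, a membrane carbonic anhydrase that converts carbon dioxide and bicarbonate, had 69.9, 64.9, 86.3 and 110 in air and 947, 374, 976 and 1118 in ozone, a 9.62-fold rise (log2 3.27 ± 0.54, adjusted p = 0.00737). SHAM ozone 18 was the lowest of the ozone libraries for this gene, yet still above all air libraries. Atp1b1, the beta subunit of the sodium and potassium pump, had 1004, 1356, 2274 and 2978 in air and 8437, 6662, 9133 and 6946 in ozone (4.43-fold, adjusted p = 0.00822). No other member of that list of 30 was called, and its median log2 change was 0.18, against 0.0099 over all genes. At an unadjusted p under 0.05 the list had 4 members up and 3 down, beside 9.76% up and 8.67% down over all genes.

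Of the other kidney markers all but Lrp2 were at or near 0. Umod and Kap, which mark the thick ascending limb and the proximal tubule, had 0 reads in all 8 SHAM libraries. Without Slc12a3 the sum of the other 8 kidney markers was 40.9 to 59.6 RPM in air and 31.7 to 36.6 in ozone. Nearly all of it was Lrp2, an endocytic receptor, with means of 48.4 in air and 33.7 in ozone. Means were slightly higher in ozone for Calb1 (0.485 and 0.572), Pvalb (0.191 and 0.455) and Slc12a1 (0.0212 and 0.0407). For Slc34a1 the mean was lower in ozone (0.0212 and 0). The promoter of Slc12a3 is shown because its gene had one of the steepest rises. It is the RefSeq sequence of build GRCr8, chr19:10675051-10675300, minus strand, 250 bases ending at the base before the annotated start. Capitals mark TATAA, the letters of a TATA box, which begin 32 bases before the start.
Slc12a3: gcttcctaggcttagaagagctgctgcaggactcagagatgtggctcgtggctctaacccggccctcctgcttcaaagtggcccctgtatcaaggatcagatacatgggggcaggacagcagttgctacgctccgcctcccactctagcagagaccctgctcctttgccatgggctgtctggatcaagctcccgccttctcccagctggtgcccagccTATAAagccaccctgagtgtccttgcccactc
On either strand TATAA occurred in 14 of 79 rising genes with a promoter (17.7%), in 4 of 61 falling genes (6.56%), in 13.6% of genes tested and in 8023 of 33469 promoters overall. A match of letters describes the window only.

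Of 40 genes of amino acid breakdown and the urea cycle 3 rose and 0 fell, and of 16 amino acid transporters 1 rose and 0 fell, where 0.946% of all genes rose. Sds, serine dehydratase, which turns serine into pyruvate, had 393, 209, 288 and 464 in air and 3523, 3079, 2615 and 4771 in ozone. The lowest ozone library was more than 5 times the highest air library, and the rise was 10.5-fold (log2 3.39 ± 0.56, limma adjusted p = 0.00766). Got1, the cytosolic aspartate aminotransferase, had 2509, 2233, 2080 and 5468 in air and 17385, 14301, 13421 and 20109 in ozone (log2 2.51 ± 0.40, adjusted p = 0.00611). Here SHAM air 4 stood above the other air libraries, without reaching the ozone libraries. Slc25a15, the mitochondrial ornithine carrier of the urea cycle, had 8941, 8390, 11188 and 13992 in air and 47095, 38017, 50523 and 44857 in ozone (4.31-fold, adjusted p = 0.00611). Slc16a10, a carrier of aromatic amino acids, had 229, 464, 219 and 474 in air and 1170, 1370, 818 and 1256 in ozone (log2 1.80 ± 0.31, adjusted p = 0.00822). Each of these 4 genes belonged to the core of 35. The median log2 change was 0.24 over the 40 genes, of which 13 were negative, and 0.39 over the 16 transporters. At an unadjusted p under 0.05, 10 of the 40 and 6 of the 16 were up, beside 9.76% of all genes. Tat and Tdo2, the enzymes that begin tyrosine and tryptophan breakdown and textbook targets of glucocorticoids, had log2 changes of 1.12 (adjusted p = 0.0963) and 1.19 (adjusted p = 0.054) and did not pass.

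Targets of the glucocorticoid receptor gave 3 rises and 0 falls among 29 tested, where 0.946% of all genes rose. Fkbp5, a cochaperone that the receptor induces and that in turn limits the receptor, had 415, 593, 405 and 512 in air and 2898, 1352, 1735 and 2433 in ozone (log2 2.08 ± 0.30, limma adjusted p = 0.00287). The groups were separated by more than the range within air. Por, which passes electrons to the cytochrome P450 enzymes, had 1664, 1243, 935 and 805 in air and 6654, 5500, 3072 and 6060 in ozone (log2 2.19 ± 0.27, adjusted p = 0.00116). Of 29 genes of cytochrome P450 and their electron donors 1 rose and 0 fell, with 12 positive and 17 negative changes and a median of −0.09. Agt, angiotensinogen, the liver's precursor of the hormone angiotensin, had 9978, 6286, 10060 and 5815 in air and 18852, 16240, 16744 and 22890 in ozone (log2 1.25 ± 0.22, adjusted p = 0.011). The call of Agt was lost without SHAM air 2 (0.0516) and without SHAM ozone 20 (0.0597). The median of the glucocorticoid receptor list was 0.37, and 0.12 to 0.57 when 1 library was left out. Of its 29 members 23 were positive, beside 51.0% of all genes. Nr3c1, the receptor itself, changed by −0.75 (adjusted p = 0.0889), and Pck1, a glucose synthesis enzyme, by −0.63 (adjusted p = 0.26). Among 19 gluconeogenesis genes limma and edgeR called 0, DESeq2 called 3, and 4 were up and 2 down at an unadjusted p under 0.05.

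Of 19 targets of p53 in cell cycle arrest 2 rose, Cdkn1a and Ccng1, and 7 had a negative change. Over all genes 0.946% rose and 6269 of 12791 had a negative change. Cdkn1a, which encodes the cyclin kinase inhibitor p21 and is induced by p53, had 354, 130, 450 and 345 in air and 2916, 816, 2117 and 3216 in ozone (log2 2.78 ± 0.48, limma adjusted p = 0.00879). SHAM ozone 18 was the lowest ozone library and SHAM air 2 the lowest air library, and the groups did not overlap. Tp53i13, a p53-inducible gene, went from 73.7 ± 29.8 to 264 ± 46.3 (SD, n = 4 per group; adjusted p = 0.00157). Ccng1, cyclin G1 and another p53 target, went from 634 ± 203 to 1453 ± 149 (adjusted p = 0.0125). The call of Ccng1 was lost without SHAM air 2 (0.0534), SHAM ozone 17 (0.0529) or SHAM ozone 20 (0.0599). Tp53i13 was not on the list. Of 22 cell cycle genes, whose median was −0.23, limma and edgeR called 0, DESeq2 called 2, and 3 were up and 2 down at an unadjusted p under 0.05.

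Of 13 genes of the SPRY and SOCS box list 2 rose and 0 fell, where 0.946% of all genes rose. Spsb4, a SPRY-domain adaptor of a ubiquitin ligase, had 31.3, 36.0, 48.8 and 34.1 in air and 827, 202, 304 and 400 in ozone (9.96-fold, log2 3.32 ± 0.37, limma adjusted p = 0.000486). The air libraries lay close together and the ozone libraries spread over a wide range above them. Spsb1, its relative, had 14.9, 6.01, 26.2 and 28.1 in air and 146, 35.5, 174 and 155 in ozone (log2 2.68 ± 0.57, adjusted p = 0.0291). The lowest ozone value of Spsb1, in SHAM ozone 18, was just above the highest air value. Its call was lost without SHAM air 1 (0.0538), SHAM air 2 (0.103), SHAM ozone 17 (0.106), SHAM ozone 19 (0.0593) or SHAM ozone 20 (0.112). Bach2, a transcriptional repressor best known in lymphocytes, had 20.1 ± 6.77 in air (SD, n = 4), where no library passed 26.8, and 131, 108, 119 and 134 in ozone (log2 2.61 ± 0.30, adjusted p = 0.000486). Of the B cell markers 2 were abundant enough to be tested, and neither was higher in ozone.

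Of 12 genes of lipid droplets and lipolysis, a group drawn up after the values were seen, 4 rose (Pnpla2, Abhd15, Plin5 and Pex11a), 0 fell and 4 had a negative change. Over all genes 0.946% rose, and the count in this group follows in part from the choice. Pnpla2, adipose triglyceride lipase, which opens the release of fatty acids from stored fat, had 786, 448, 626 and 526 in air and 2277, 2092, 1143 and 2731 in ozone (log2 1.75 ± 0.30, limma adjusted p = 0.00822). A gene listed as LOC100911615 kept a ratio of 0.767 to 0.772 to Pnpla2 in all 16 libraries, so reads may be split between the 2 names and both are reported as uncertain. Gpat3, an acyltransferase that starts triglyceride synthesis, had 1.49, 3.60, 17.5 and 2.01 in air and 66.4, 57.5, 60.9 and 78.2 in ozone (13.2-fold on the log2(count + 1) scale, adjusted p = 0.00541). SHAM air 3 was the highest air library for Gpat3, and the other 3 were within a few counts of the floor. Abhd15, a hydrolase-fold protein of adipocyte lipolysis, went from 244 ± 22.1 to 610 ± 94.2 (adjusted p = 0.00287), and Pla2g12a, a secreted phospholipase, from 398 ± 74.8 to 1347 ± 255 (adjusted p = 0.00201). Plin5, a droplet coat protein of oxidative tissue, went from 34.6 ± 16.2 to 114 ± 28.6 (adjusted p = 0.0148), and lost the call without SHAM air 2 (0.0516), SHAM ozone 17 (0.0529) or SHAM ozone 20 (0.072). Pex11a, a factor of peroxisome division, went from 1030 ± 619 to 3567 ± 983 (adjusted p = 0.0301), a call lost without SHAM air 2 or 4 or SHAM ozone 17 or 20 (0.103 to 0.116). Gpat3 and Pla2g12a were not in the group. Of 27 genes of fatty acid oxidation limma, edgeR and DESeq2 called 0, with 1 up and 0 down at an unadjusted p under 0.05.

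Mitochondrial carriers and polyamine enzymes formed 2 further groups, drawn up after the values had been seen, so their counts follow in part from the choice. Of 43 carriers of the Slc25 family 4 rose and 0 fell, where 0.946% of all genes rose, and the median was 0.30. Of the 4, Slc25a15 and Slc25a33 belonged to the core. In Slc25a29 and Slc25a32 (adjusted p = 0.0396 and 0.031) the groups overlapped. Both lost the call without SHAM air 2, SHAM ozone 17, 19 or 20, Slc25a29 also without SHAM air 4 and Slc25a32 also without SHAM air 1 (up to 0.143 and 0.128). Slc25a33, a pyrimidine nucleotide carrier, went from 100 ± 15.2 to 418 ± 59.0 (SD, n = 4 per group; log2 2.05 ± 0.28, limma adjusted p = 0.00214). Cycs, cytochrome c of the respiratory chain, went from 860 ± 140 to 1780 ± 158 (adjusted p = 0.00941). Of 12 polyamine genes 3 rose and 0 fell. These were Odc1, the rate-setting decarboxylase (812 ± 66.4 to 1461 ± 268, adjusted p = 0.0286), Azin1, which protects it from degradation (806 ± 163 to 1925 ± 419, adjusted p = 0.0163), and Amd1, which supplies the aminopropyl donor (1333 ± 321 to 3563 ± 1355, adjusted p = 0.0296). The calls of Odc1, Azin1 and Amd1 were lost without 5, 3 and 5 of the 8 SHAM libraries, with SHAM air 2, SHAM ozone 17 and SHAM ozone 20 in each case. The highest adjusted p was 0.115 for Odc1 without SHAM ozone 20, 0.0743 for Azin1 without SHAM ozone 17, and 0.121 for Amd1 without SHAM ozone 17. Rbm3, an RNA-binding protein induced by cold, had 323, 217, 248 and 207 in air and 862, 927, 648 and 1168 in ozone (log2 1.84 ± 0.25, adjusted p = 0.00217). Its relative Cirbp went from 270 ± 60.2 to 501 ± 66.9 (adjusted p = 0.0286), and that call was lost without SHAM air 1, SHAM air 2, SHAM ozone 17, SHAM ozone 18 or SHAM ozone 20 (adjusted p of 0.0589 to 0.113).

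**Figure D2:**
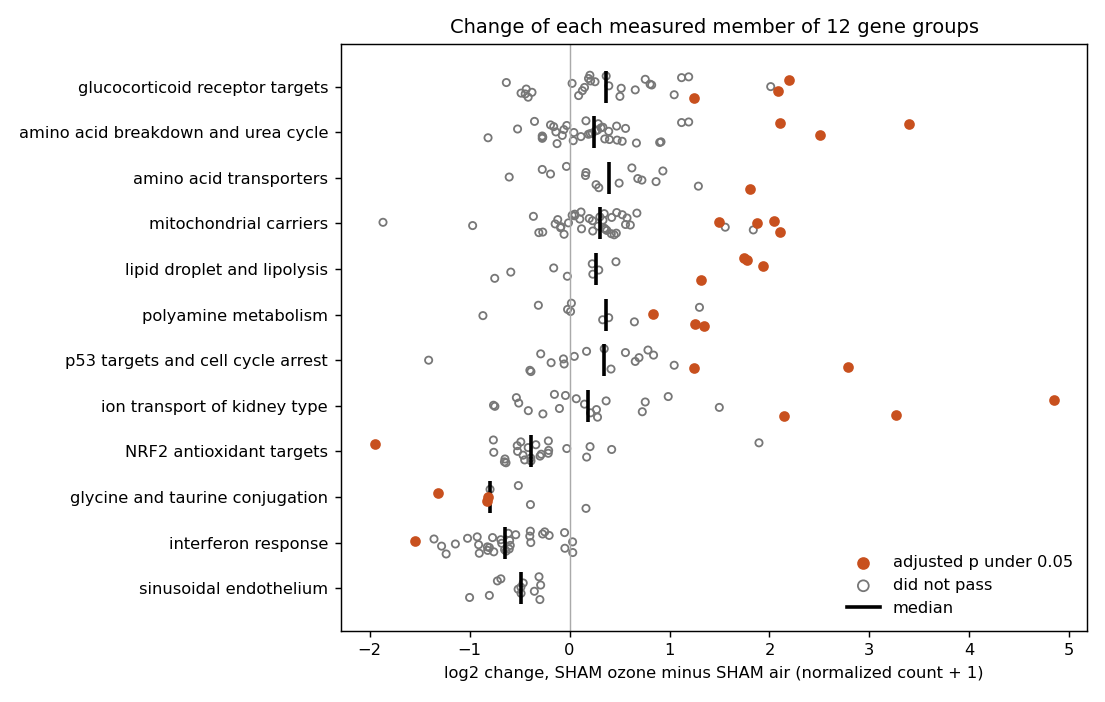
Log2 change of each measured member (1 point per gene) in 12 gene groups, ozone minus air in SHAM, on the log2(normalized count + 1) scale. Points past 0 to the right were higher in ozone, and the interferon response group lies almost wholly to the left.

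Among the 81 falls, 4 belonged to the core of 35, Srgap2, Chka and Pdzrn3 among them. Chka, choline kinase, the first enzyme of phosphatidylcholine synthesis, had 1438, 985, 1478 and 1064 in air and 374, 236, 667 and 293 in ozone. Every ozone library was below every air library, and the fall was by 1.75 on the log2 scale (SE 0.29, limma adjusted p = 0.00767). Of 18 genes of choline and phospholipid synthesis 1 fell and 0 rose, while 11 had a positive change and the median was 0.24. At an unadjusted limma p under 0.05, 4 of the 18 were up and 1 was down. Pdzrn3, a ubiquitin ligase, went from 213 ± 57.8 to 60.6 ± 17.7 (SD, n = 4 per group; adjusted p = 0.00541), and Srgap2, a membrane-bending F-BAR protein, from 401 ± 82.4 to 151 ± 30.6 (adjusted p = 0.00727). Osgin1, an antioxidant response gene, had 2189, 1276, 2901 and 783 in air and 225, 439, 713 and 401 in ozone, and SHAM air 4 came close to SHAM ozone 19. Its fall was by 1.95 (adjusted p = 0.0296), a call lost without SHAM air 1, SHAM air 2, SHAM ozone 17, SHAM ozone 18 or SHAM ozone 20 (0.0563 to 0.12). Of 25 targets of NRF2, the transcription factor of the antioxidant response, Osgin1 alone was called, and 21 of 25 had a negative log2 change, with a median of −0.39. Of all genes 0.633% fell and 6269 of 12791 had a negative change. At an unadjusted p under 0.05 the NRF2 list had 5 down and 0 up, beside 8.67% down and 9.76% up over all genes. Hmox1 and Nqo1, its best-known members, had changes of −0.03 and −0.34 (adjusted p = 0.971 and 0.563).

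**Figure D3:**
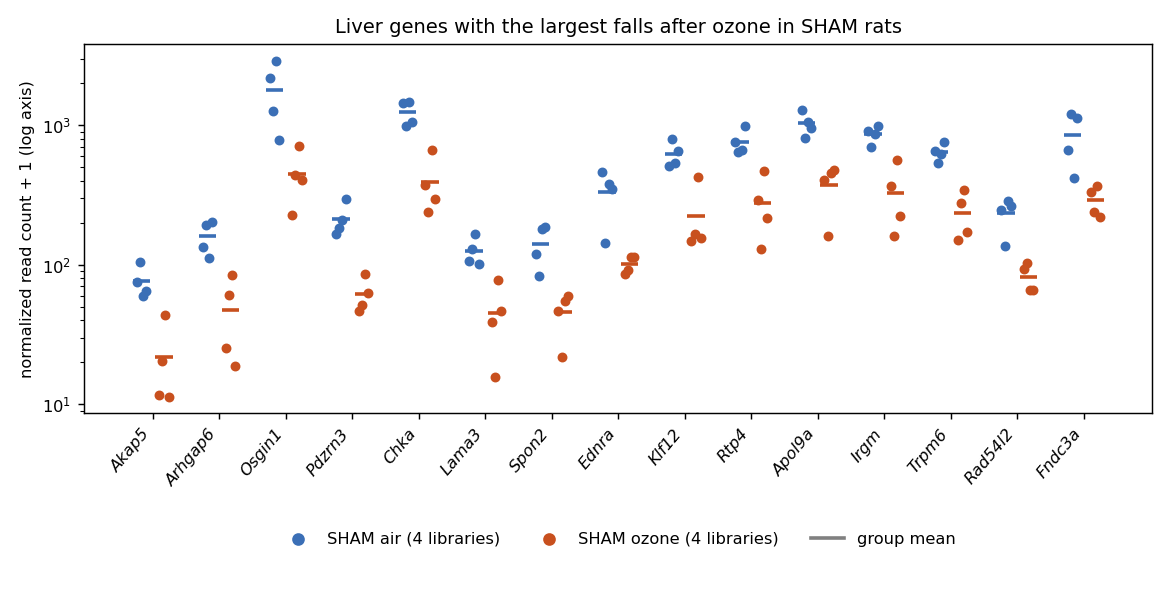
Normalized read count plus 1 (log axis) in each SHAM air and SHAM ozone library for the 15 falls that the naming rule gave, 1 point per library and a bar at each group mean. For every gene the highest ozone library lies below the lowest air library, as the rule required.

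Genes of the interferon response were lower in ozone, though few passed the test. Of 33 tested, 31 had a negative log2 change, the median was −0.65 and 17 were down at an unadjusted p under 0.05, where 8.67% of all genes were. Limma called 1 of them, Irgm, edgeR called 0 and DESeq2 called 4. Irgm, an immunity-related GTPase, had 906, 703, 865 and 983 in air and 367, 159, 563 and 224 in ozone (fall by 1.55 on the log2 scale, SE 0.37, adjusted p = 0.0488). Its groups did not overlap, but SHAM ozone 19 was closer to the air libraries than the others. The call of Irgm was lost without SHAM air 1, 2 or 4 or without SHAM ozone 17, 18 or 20 (0.0828 to 0.153), and with the neural marker sum as a covariate (0.09). Mx1, an antiviral GTPase, had 387, 256, 194 and 271 in air and 199, 42.8, 148 and 92.9 in ozone, with SHAM ozone 17 above SHAM air 3 (log2 −1.36, adjusted p = 0.112). Relative to the SHAM air mean of each gene, the median over the 33 genes was 0.17, −0.03, −0.25 and 0.19 in SHAM air 1 to 4 and −0.21, −1.21, −0.26 and −0.78 in SHAM ozone 17 to 20. SHAM ozone 18 and SHAM ozone 20 were thus the lowest, SHAM ozone 17 and SHAM ozone 19 lay near SHAM air 3, and the groups overlapped. SHAM ozone 18 and SHAM air 3, the lowest of their groups here, were also the libraries with the highest neural marker sums. With the covariate the list's median was −0.45, without SHAM ozone 18 it was −0.51, and in the ADREX comparison it was −0.31. The part of the neural transcripts and of the lower endothelial marker sum in this change was not tested.

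**Figure D4:**
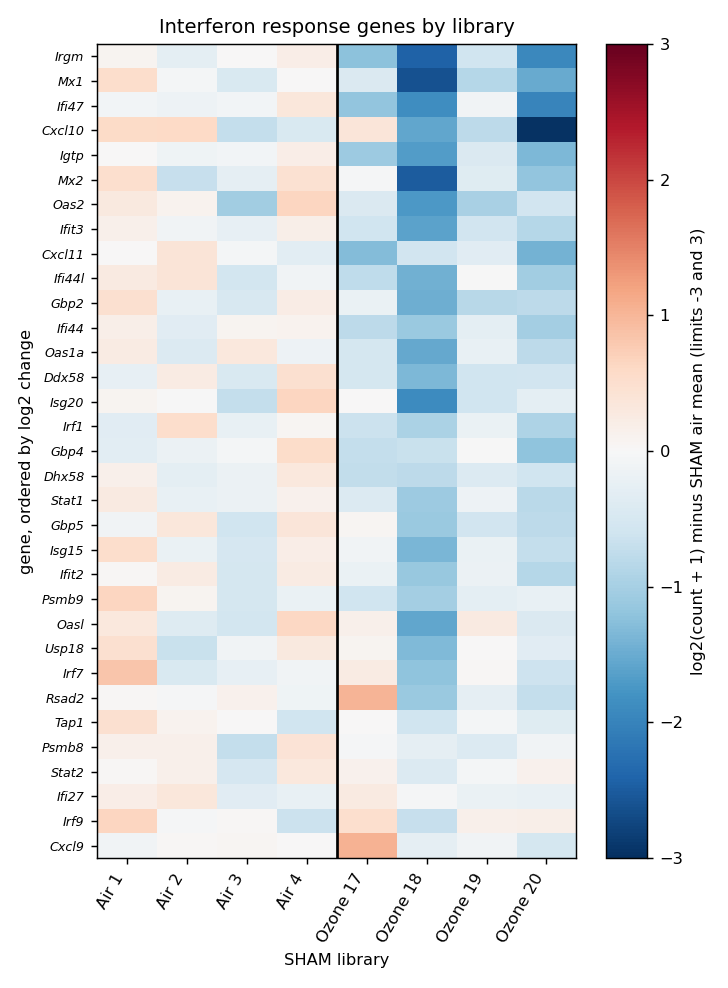
Log2(normalized count + 1) minus the SHAM air mean for each interferon response gene (one per line, ordered by change) in each of the 8 SHAM libraries, blue for lower and red for higher. Ozone 18 and ozone 20 are the bluest columns, while ozone 17 and ozone 19 are close to air 3.

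Rtp4 and Apol9a, named by the rule and not on that list, fell. Rtp4 had 754, 638, 660 and 991 in air and 290, 130, 467 and 214 in ozone, and Apol9a had 1293, 812, 1061 and 961 in air and 408, 159, 451 and 481 in ozone. In both genes the air and ozone libraries were separate. Rtp4, a receptor chaperone, fell by 1.59 (limma adjusted p = 0.0152) and kept the call except without SHAM ozone 20 (0.0696). Apol9a, an apolipoprotein L, fell by 1.56 (adjusted p = 0.0245), a call lost without SHAM air 1, 2 or 4 or SHAM ozone 17 (0.0549 to 0.0657). Parp14, an ADP-ribosyltransferase, went from 2113 ± 224 to 1047 ± 316 (adjusted p = 0.0191), a call lost without SHAM air 2 or 4 or SHAM ozone 18 or 20 (0.0518 to 0.0868). Helz2, Trim34 and Il6st, chosen after their values were seen, as Parp14 was, had changes of −1.47, −1.06 and −0.91 (adjusted p = 0.0499, 0.0148 and 0.0295). The call of Helz2, a helicase, was lost without any 1 SHAM library except SHAM air 3 (0.0543 to 0.151), that of Trim34, a ubiquitin ligase, without SHAM ozone 20 (0.064), and that of Il6st, a cytokine receptor chain, without SHAM air 2 or 4 or SHAM ozone 17, 18 or 20 (0.0581 to 0.107). The promoters of Irgm, Parp14 and Apol9a are shown as those of 3 of these falling genes. They are RefSeq sequences of build GRCr8, 250 bases each ending at the base before the annotated start: Irgm chr10:33742579-33742828 (minus strand), Parp14 chr11:78407884-78408133 (plus strand) and Apol9a chr7:111028214-111028463 (minus strand). TATAA, in capitals where found, occurred in Apol9a, 45 bases before the start, and not in the other two.
Irgm: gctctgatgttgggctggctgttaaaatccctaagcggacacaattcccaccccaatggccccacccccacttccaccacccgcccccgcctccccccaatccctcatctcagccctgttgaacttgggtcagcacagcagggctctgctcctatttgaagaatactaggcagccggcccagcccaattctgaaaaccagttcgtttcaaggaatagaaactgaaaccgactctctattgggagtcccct
Parp14: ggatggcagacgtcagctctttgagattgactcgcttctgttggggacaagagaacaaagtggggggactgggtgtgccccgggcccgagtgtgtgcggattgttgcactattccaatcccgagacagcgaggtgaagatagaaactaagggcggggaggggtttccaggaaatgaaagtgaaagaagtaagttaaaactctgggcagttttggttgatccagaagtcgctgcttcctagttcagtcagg
Apol9a: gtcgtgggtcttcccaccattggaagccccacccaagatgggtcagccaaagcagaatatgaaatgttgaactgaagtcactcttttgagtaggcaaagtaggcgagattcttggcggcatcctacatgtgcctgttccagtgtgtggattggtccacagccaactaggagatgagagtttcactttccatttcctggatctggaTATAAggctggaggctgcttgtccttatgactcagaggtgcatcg

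Further falls concerned conjugation, matrix and signalling genes. Baat, which joins bile acids to glycine or taurine, went from 16915 ± 1799 to 9721 ± 2502 (SD, n = 4 per group; limma adjusted p = 0.0226), Glyat, glycine N-acyltransferase, from 1429 ± 202 to 816 ± 164 (adjusted p = 0.0396), and Glyatl1, its relative, from 3015 ± 402 to 1246 ± 428 (adjusted p = 0.0191). These were 3 of 7 conjugation genes, a group drawn up after the values were seen, so the count follows in part from the choice. Over all genes 0.633% fell. Each of the 3 lost the call without 5 or 6 of the 8 SHAM libraries, SHAM ozone 20 among them, and the highest adjusted p was 0.104 for Baat, 0.142 for Glyat and 0.0868 for Glyatl1. Of 20 genes of bile acid synthesis and transport Baat was the only call, 5 were down and 0 up at an unadjusted p under 0.05, and the median was −0.29. Trpm6, a magnesium channel, went from 642 ± 92.2 to 234 ± 90.0 (adjusted p = 0.0122), a call lost without SHAM ozone 17 (0.0529) or SHAM ozone 20 (0.0601). Ednra, an endothelin receptor of stellate cells and vessel walls, had 458, 142, 378 and 347 in air and 84.6, 90.5, 112 and 112 in ozone (fall by 1.61, adjusted p = 0.0396), with SHAM air 2 the only air library near the ozone range. That call was lost without any 1 SHAM library except SHAM air 2 and SHAM air 3 (0.054 to 0.131). Of 27 matrix genes Lama3, a laminin chain, and Spon2, a spondin, fell (adjusted p = 0.0301 and 0.0305), and Dag1, dystroglycan, rose (adjusted p = 0.0157). All 3 lost the call without SHAM ozone 17 (0.0743 to 0.0921) or SHAM ozone 20 (0.0632 to 0.0734). Lama3 also lost it without SHAM air 2 (0.0971) or SHAM air 4 (0.0535), Spon2 without SHAM air 1 (0.0508), SHAM air 4 (0.102) or SHAM ozone 18 (0.0781), and Dag1 without SHAM air 2 (0.0534).

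Some genes of the naming rule and the core belonged to no group described here. Tpte2, a phosphatase-like membrane protein, had 10.4, 1.20, 0 and 6.02 in air and 207, 71.0, 153 and 199 in ozone. All ozone libraries lay above all air libraries, and the rise, 40.2-fold on the log2(count + 1) scale, depends on the added 1 because air libraries were near the floor (limma adjusted p = 0.00697, in the core). Ppcs, an enzyme of coenzyme A synthesis, went from 487 ± 117 to 1356 ± 343, Slain2, a microtubule protein, from 457 ± 65.2 to 933 ± 129, and Pitpnb, a phospholipid carrier, from 552 ± 35.2 to 1072 ± 177 (SD, n = 4 per group), all in the core. Slc13a5, the citrate carrier, Slc41a3, Alpl, alkaline phosphatase, and Fam69c rose by 2.30, 2.26, 2.20 and 2.98 on the log2 scale (adjusted p = 0.0304, 0.0191, 0.0152 and 0.0459). Each of these 4 lost the call without SHAM air 2, SHAM ozone 17 or SHAM ozone 20, with adjusted p up to 0.119, 0.0868, 0.0714 and 0.153. Slc13a5 lost it also without SHAM air 1, SHAM air 4 or SHAM ozone 18, and Fam69c without SHAM air 1, SHAM air 4 or SHAM ozone 19. Akap5, a kinase anchor, Arhgap6, Klf12, Rad54l2 and Fndc3a changed by −2.01, −1.98, −1.61, −1.49 and −1.47 (adjusted p = 0.0296, 0.0278, 0.0199, 0.0352 and 0.0396). These 5 lost the call without SHAM air 4, SHAM ozone 17 or SHAM ozone 20, all but Rad54l2 without SHAM air 2, all but Arhgap6 and Klf12 without SHAM air 1, Akap5, Klf12 and Fndc3a without SHAM ozone 18, and Rad54l2 without SHAM ozone 19, with adjusted p up to 0.148.

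Of 25 genes of the unfolded protein response 1 rose, where 0.946% of all genes rose. The list had 12 positive and 13 negative changes, with a median of −0.04. Its 1 called gene was Edem1, which sends misfolded glycoproteins to degradation (limma log2 1.91 ± 0.42, adjusted p = 0.0311). The call was lost without SHAM air 1, 2 or 4 or SHAM ozone 17 or 20 (0.0505 to 0.12). Among 21 cAMP-responsive and immediate early genes 1 fell, where 0.633% of all genes fell. This was Adra1b, an adrenergic receptor of hepatocytes, which changed by −0.81 ± 0.19 (adjusted p = 0.0396). Its call was lost without any 1 SHAM library except SHAM air 3 and SHAM ozone 19 (0.0572 to 0.142). Several pathways of liver metabolism held no call. Limma, edgeR and DESeq2 called 0 of 21 genes of fatty acid and triglyceride synthesis, of 26 of cholesterol synthesis, of 24 acute phase proteins, of 18 of NF-kB and cytokine signalling, and of 19 metallothioneins and metal handling genes. At an unadjusted p under 0.05 these lists had 0, 0, 1, 3 and 1 up and 4, 1, 0, 1 and 0 down. Of 19 clock genes limma and edgeR called 0 and DESeq2 called 1, with 3 up and 1 down at an unadjusted p under 0.05. Of 15 glycogen genes limma and edgeR called 0 and DESeq2 called 1, with 1 up and 5 down. Their median was −0.28, and in 4 of them the groups did not overlap with ozone lower, as in 5.93% of all genes. Over all genes 9.76% were up and 8.67% down at an unadjusted p under 0.05.

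To see which of these changes also occurred without adrenal glands, each gene was set beside the ozone effect in adrenalectomized rats (ADREX air 65 to 68 and ADREX ozone 81 to 84). The groups follow the titles, because the treatment field names ozone for all 8 ADREX libraries. In ADREX 16 genes were called (0.125%). In ADREX the sign of the change was that of SHAM for 129 of the 202 called genes and the reverse for 73, over all genes tested 7136 of 12791 had the same sign, and the 2 comparisons share no library. The median log2 change of the rises was 1.14 in SHAM and 0.11 in ADREX, and that of the falls was −1.06 and −0.14. The SHAM values chose these genes, so a smaller median in ADREX follows in part from the choice. Ciapin1, a factor of iron-sulphur cluster assembly, was called in both, with log2 changes of 0.93 and 0.96.

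A test of the difference itself called 14 genes (0.109%), of which 11 were among the 202 and 8 among the genes named by the rule or the core. Slc12a3 stood at 44.7, 24.4, 5.96 and 24.5 in ADREX air and 21.7, 57.6, 18.7 and 18.7 in ADREX ozone, and the groups overlapped. Its ADREX change was 0.33 ± 0.49, and the difference from SHAM was −4.51 ± 0.69 (limma adjusted p = 0.0193). Spsb4 had 232, 176, 201 and 231 in ADREX air and 216, 120, 160 and 66.2 in ADREX ozone, so ADREX air was already above SHAM air, and the difference was −4.00 ± 0.53 (adjusted p = 0.00707). Bach2 changed by −0.40 in ADREX (difference −3.01 ± 0.42, adjusted p = 0.00871), and Epb4.1, a membrane skeleton protein, by −0.80 (difference −2.37 ± 0.32, adjusted p = 0.00707). Por had a difference of −2.17 ± 0.39 (adjusted p = 0.04), Dcaf13, a ubiquitin ligase adaptor of the nucleolus, −2.12 ± 0.36 (adjusted p = 0.0317), Slc16a10 −2.57 ± 0.43 (adjusted p = 0.0317) and Cdk19, a kinase of the Mediator complex, −1.41 ± 0.23 (adjusted p = 0.0295). In all 8 genes the mean was higher in ADREX air than in SHAM air. For Por it was 2567 against 1162, for Epb4.1 1168 against 656 and for Slc16a10 594 against 346. Slc12a3 had 24.9 against 8.46, Bach2 33.7 against 20.1, Dcaf13 940 against 682 and Cdk19 438 against 367. The part of these levels in the differences was not tested. For Spsb4, Bach2 and Epb4.1 the call held without any 1 of the 16 libraries. For Por it was lost in 11 of these 16 settings and for Dcaf13 in 10. For Slc12a3 it was lost in 5 (up to 0.0759), and for Cdk19 and Slc16a10 in 9 each (up to 0.092), in each case with the highest value without SHAM ozone 20. Rbm3 changed by 1.08 ± 0.25 in ADREX (adjusted p = 0.0953) and Car12 by 1.65 ± 0.54 (adjusted p = 0.162). Their difference from SHAM was not called. Car12 was near the floor in ADREX, with 7.06, 1.06, 7.45 and 6.11 in air and 14.9, 40.9, 5.49 and 21.6 in ozone. Those ADREX groups overlapped, and both lay below the SHAM air libraries, which had 69.9, 64.9, 86.3 and 110.

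**Figure D5:**
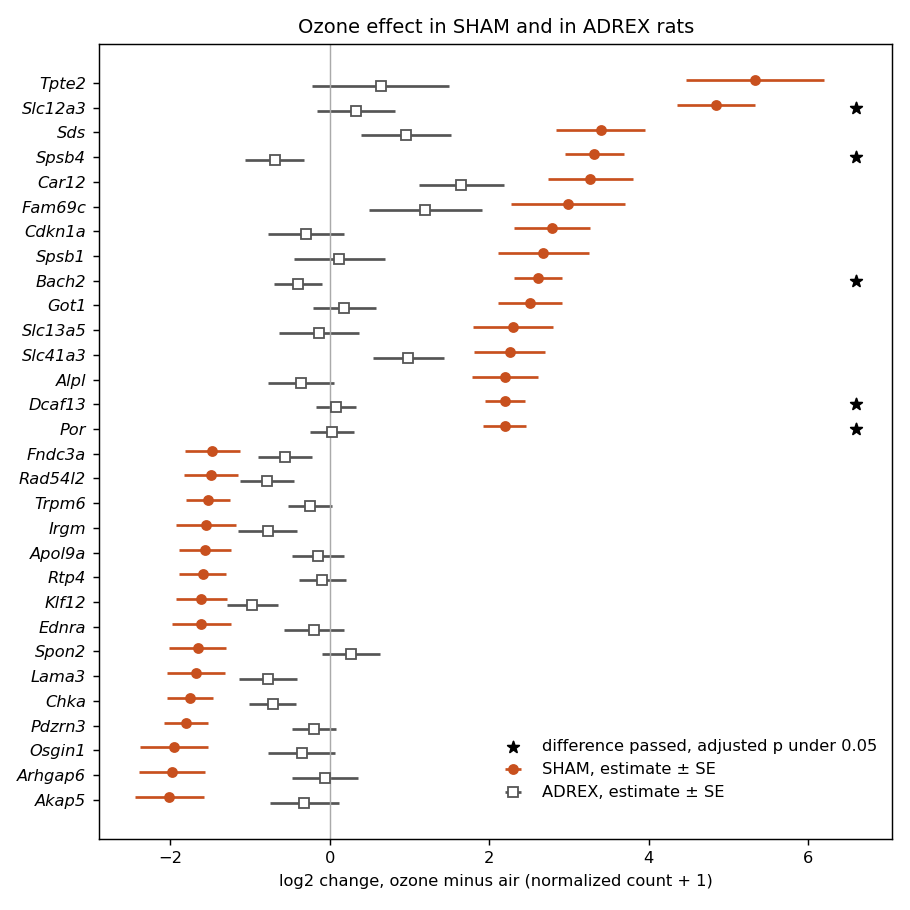
Log2 change with ozone (normalized count + 1) in SHAM and in ADREX for the 15 rises and 15 falls of the naming rule, with bars for the SE, 1 line per gene. Slc12a3, Spsb4 and Bach2 lie far to the right in SHAM and near 0 or below in ADREX.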

How the data were processed

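Liver mRNA was measured in 16 libraries, of which 8 form this comparison. The authors deposited signal values: counts of reads per gene symbol, each library scaled by its own factor. The tools named per the submitters' processing notes are Partek and DESeq2, and the build is rn6. Versions, the aligner, the counter and the annotation were not given in the sources used here. Whole reads were recovered from the steps of each column (100% within 0.01 of a whole number, largest deviation 0.000537), and counting limits cover counting error only. On these reads edgeR 4.0.16 called 176 genes and DESeq2 1.42.0 called 540.

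The scale of analysis was log2(value + 1). A mean of at least 14.7 over the 16 libraries was required, which kept 12791 of 22587 symbols. A two-sided limma-trend test (limma 3.58.1, R 4.3.3) used a mean for each of the 4 groups over the 16 libraries, with 12 residual degrees of freedom and 4.42 from the prior. P-values were adjusted by Benjamini and Hochberg's method across the genes tested, and 0.05 was the threshold. Where no tool is named, an adjusted p is limma's. Errors of means are SD (n = 4) and of log2 changes SE, and log2(value + 1) understates changes of low genes. Scripts were tested on simulated data.

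Genes were named by a rule: called, no overlap of the 4 and 4 libraries, a mean of at least 73.4 in the higher group and no placeholder symbol, up to 15 of the largest rises and 15 of the largest falls, plus the calls that hold in all planned settings and called members of a list where it is described. Comparison, members and lists were chosen with earlier results of these data known. Some lists came after the values were seen. Promoters are RefSeq sequences matched by symbol, for 9075 of the genes tested. Of the 4 motifs searched only TATAA is reported, because the letters of the others are in no file used here. Results on withheld items are not reported here. Replicate numbers differ between groups, so no pairing was available. Alternatives were another pseudocount, other filters and scalings, array weights, a robust fit, SHAM libraries alone, edgeR, DESeq2, other thresholds, a neural covariate and leaving out libraries.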

Additional observations from a re-analysis of the deposited data

Results flagged for a closer look

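Of 120 groups of 4 libraries examined, 4 held a library far from the other 3, and chance gives about 1 in 20 such groups. Got1 stood at 5468 in SHAM air 4, against 2080 to 2509 in the other air libraries. Klf12, a transcriptional repressor, stood at 427 in SHAM ozone 19, against 148 to 166 in the other ozone libraries. Gpat3 stood at 17.5 in SHAM air 3, against 1.49 to 3.60. The summed neural markers stood at 880 RPM in SHAM air 3, against 45.7 to 109 in the other air libraries.

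In 8 named genes the ozone effect differed between ADREX and SHAM by limma's test of the difference. On the log2 scale, ADREX minus SHAM, the differences were −4.51 for Slc12a3, −4.00 for Spsb4, −3.01 for Bach2, −2.57 for Slc16a10, −2.37 for Epb4.1, −2.17 for Por, −2.12 for Dcaf13 and −1.41 for Cdk19. All 8 genes rose in SHAM, and all 8 had a higher mean in ADREX air than in SHAM air.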

How the results depend on the processing

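The count of 202 genes became 1133 with array quality weights, 540 with DESeq2, 504 at an adjusted p under 0.1, 37 at an adjusted p under 0.01 and 107 when the 3 libraries with most neural marker RNA were left out. Leaving out 1 SHAM library gave 38 to 658. Counts under the other settings lay between 143 (no filter on low values) and 210, among them 176 with edgeR, 154 with the SHAM libraries alone and 178 with the neural covariate, of which 129 were among the 202. Leaving out SHAM ozone 18 and SHAM air 3 together, added after the data were seen, gave 210, of which 128 were among the 202. The share that rose moved with 1 library: without SHAM ozone 20 there were 32 rises and 6 falls. The number of named genes whose ozone effect differed between SHAM and ADREX was 8, 11 with edgeR and 3 to 11 without 1 library. For the 53 named genes no direction reversed in any setting run, and 145 of the gene and setting pairs lost the call while 1173 kept it. The 53 include the core of 35, chosen because they kept call and direction in all planned settings. Most of the pairs that kept the call therefore follow from that choice. Rescaling moved the median of all genes by 0.0138 (TMM) and 0.0170 (median of ratios). No paired analysis was possible because the groups share no replicate number. With 4 libraries a group, changes of low genes were limited by depth, since 3 reads correspond to 3.26 to 6.02 normalized counts. The causes of these shifts were not tested, other than fewer libraries or another threshold by construction.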

Other observations

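Of 24 genes of mitochondrial protein import, a group drawn up after the values were seen, 2 rose (Timm17a and Chchd4), 0 fell and 7 were up at an unadjusted p under 0.05. Over all genes 0.946% rose and 9.76% were up at that unadjusted p. Timm17a, a channel subunit, went from 139 ± 40.3 to 293 ± 47.5 (SD, n = 4 per group; limma adjusted p = 0.0296), a call lost without SHAM air 2 or 4 or SHAM ozone 17 or 20 (0.0853 to 0.118). Chchd4, an oxidoreductase of the intermembrane space, had an adjusted p of 0.0499, and lost the call without any 1 SHAM library except SHAM air 3 and SHAM ozone 19 (0.0839 to 0.142).

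The libraries of a group were not equally extreme. Among the 121 rises SHAM ozone 20 was the highest ozone library in 51 and SHAM ozone 17 in 43, while SHAM ozone 18 was the lowest in 56 and SHAM ozone 19 in 48. Among the 81 falls SHAM ozone 19 was the highest ozone library in 51 and SHAM ozone 20 the lowest in 34. In air, SHAM air 2 was the lowest library in 54 rises and SHAM air 3 the highest in 53.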
